A study of Mus musculus with 8 samples.

Results

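The transfer RNA (tRNA) genes of the mouse were examined for SMC1 binding in cultured cortical neurons. The members were all 430 loci of biotype tRNA in the GRCm38 RefSeq gene table, out of 49993 annotated loci with coordinates. They comprised 408 nuclear loci and 22 loci of the mitochondrial genome. Each locus was matched with the SMC1 peaks that overlapped it or lay within 1 kb of it. The loci were 59 to 107 bp long, with a median of 72 bp.

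SMC1 is part of the cohesin ring, which extrudes loops of chromatin. Its binding was mapped by chromatin immunoprecipitation and sequencing (ChIP-seq) in wild-type cortical neurons taken at embryonic day 16 from Swiss-Webster mice and grown for 13 days in vitro. One pair of SMC1 ChIP samples came from resting cultures, labelled as untreated, and the other pair from cultures bathed in 50 µM NMDA for 10 min and kept for a further 50 min without the drug. NMDA is an agonist of one class of glutamate receptor. Each ChIP replicate used about 15000000 cells, and each condition also had 2 input samples. Etoposide appears in the growth protocol of every sample, and no treatment label names it. The labels call the replicates biological and do not say whether they came from separate litters. Dissociated cortex can hold cells other than neurons, and peak lists measure no expression with which the cell type could be checked. The gene positions are those of the C57BL/6J reference, another strain than the cultured cells.

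Each condition had 1 list of peaks found reproducibly in both ChIP replicates, 12359 at rest and 1684 after NMDA. A peak carries the authors' −log10 p for each replicate, and their sum is called the peak's strength here. Strength depends on sequencing depth, which is unknown from these lists, so it was compared within a list only, and absence from the shorter NMDA list is not a measured loss of binding. With 1 list per condition no test over samples was possible. The counts are therefore set beside the same counts over other annotated loci. Intervals are exact Clopper-Pearson 95% intervals that cover counting error over loci, which is too small where neighbouring loci share a peak.

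tRNA genes are transcribed by RNA polymerase III (Pol III). Their promoter lies inside the gene, in the A box and the B box, which the factor TFIIIC binds before TFIIIB and the polymerase are recruited. In yeasts, tRNA genes can act as insulators, and TFIIIC and the cohesin and condensin complexes have been found at them. In mammals many tRNA genes lie in arrays, some of them beside histone genes.

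The sequence of a tRNA gene could be read where a RefSeq promoter window of GRCm38.p6 (250 bases before to 50 after the start of another gene) happened to cover it. This was so for 10 of the 430 loci, 4 of them in full. The following 5 sequences are shown because they let loci with SMC1 peaks be set beside loci without one. The capitals mark a match to the B box consensus, which has 11 letters: GGTTC, a purine, A, any 2 bases and CC. The search covered both strands, and each sequence is printed in the direction in which the pattern reads. n-TRtcg5 (arginine) and n-TLaag4 (leucine, 71 of its 82 bases) had a peak in both lists. n-TTagt9 (threonine), n-TAagc16 (alanine) and n-TVcac9 (valine) had none within 1 kb.
n-TRtcg5, chr7:79466419-79466491, plus strand: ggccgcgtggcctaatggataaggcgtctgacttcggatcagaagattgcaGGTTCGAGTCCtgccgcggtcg
n-TLaag4, chr7:120917528-120917598, plus strand: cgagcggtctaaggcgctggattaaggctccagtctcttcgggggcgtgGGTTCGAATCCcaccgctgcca
n-TTagt9, chr7:35234770-35234843, minus strand: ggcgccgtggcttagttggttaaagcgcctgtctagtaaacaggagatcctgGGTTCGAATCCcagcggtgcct
n-TAagc16, chr13:21222586-21222657, plus strand: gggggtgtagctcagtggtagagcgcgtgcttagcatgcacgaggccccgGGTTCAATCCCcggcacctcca
n-TVcac9, chr13:23446142-23446214, minus strand: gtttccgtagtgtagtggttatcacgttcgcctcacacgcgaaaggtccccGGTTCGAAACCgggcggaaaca

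All 6 loci of which 60 bases or more could be read held the pattern, whether or not they had a peak. It was present on either strand in 0.362% of all 32851 promoter windows. The pattern is a description of the letters and not a measured binding site.

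For the loci with peaks, the whole windows show how close the tRNA gene lies to the start of a protein-coding gene. Capitals here mark the tRNA locus, and each window is printed in the direction of the protein-coding gene. Polg encodes the catalytic subunit of the mitochondrial DNA polymerase and lies on the minus strand. Polr3e encodes a subunit of Pol III itself and lies on the plus strand.
Polg window, chr7:79466224-79466523, minus strand: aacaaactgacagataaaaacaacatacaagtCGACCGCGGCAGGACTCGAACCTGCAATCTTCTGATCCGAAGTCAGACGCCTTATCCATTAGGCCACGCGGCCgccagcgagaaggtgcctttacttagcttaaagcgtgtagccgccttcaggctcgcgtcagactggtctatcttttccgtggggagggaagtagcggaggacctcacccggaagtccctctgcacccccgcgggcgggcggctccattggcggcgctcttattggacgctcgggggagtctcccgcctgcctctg
Polr3e window, chr7:120917528-120917827, plus strand: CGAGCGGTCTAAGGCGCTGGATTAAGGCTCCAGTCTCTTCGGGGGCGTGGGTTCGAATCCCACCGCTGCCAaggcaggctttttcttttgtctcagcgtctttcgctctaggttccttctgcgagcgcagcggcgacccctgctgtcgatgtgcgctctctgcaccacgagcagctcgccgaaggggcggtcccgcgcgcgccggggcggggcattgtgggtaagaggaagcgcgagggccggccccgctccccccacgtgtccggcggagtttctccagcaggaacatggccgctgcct

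The tRNA gene n-TRtcg5 thus reads on the opposite strand to Polg, and n-TLaag4 on the same strand as Polr3e, ending 180 bp before that gene's annotated start. Pol III stops at runs of T. The first run of 4 or more T began 13 bases after the end of n-TRtcg5 and 9 bases after the end of n-TLaag4, in each case with 5 T. Among 11 promoter windows under the SMC1 peaks at tRNA loci, none held the core of the motif of the insulator protein CTCF on either strand, and 0.557% of all windows held it. This says only that these letters are not in those windows.

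SMC1 peaks lay at a minority of tRNA genes in both conditions. A resting peak was found within 1 kb of 44 of 430 loci (10.2%, 95% interval 7.53 to 13.5%), against 15.8% of all annotated loci. An NMDA peak was found within 1 kb of 17 loci (3.95%, 2.32 to 6.25%), against 3.79% of all loci. All annotated loci include long genes, which meet more peaks. Among the 4450 other loci of at most 200 bp, 2.31% (1.89 to 2.80%) had a resting peak and 0.742% (0.511 to 1.04%) an NMDA peak.

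The other classes of short RNA gene had lower shares than tRNA genes. Of 1228 microRNA loci 4.64% had a resting peak within 1 kb. The share was 1.69% of 1004 small nuclear RNA loci and 1.34% of 1340 small nucleolar RNA loci. The NMDA shares of these classes were 1.95%, 0.398% and 0.299%. The tRNA share was nearer to that of microRNA genes than to the others. No test of these differences was made.

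The shares were also divided by closeness to a protein-coding gene. Of 76 nuclear tRNA loci within 1 kb of a protein-coding gene 15 had a resting peak (19.7%, 11.5 to 30.5%), and of the 332 nuclear loci farther away 29 had one (8.73%, 5.93 to 12.3%). The other short loci had 3.22% near protein-coding genes and 1.61% away from them. The gap between tRNA and other short loci was thus present on both sides of this division. Closeness was measured to the whole gene body, so loci are not matched for distance to a gene start. A peak at a locus counted as farther away can still lie near a gene, as at n-TYgta3, 374 bp from Abt1. Whether neighbouring genes account for the gap was not tested. After NMDA the nuclear tRNA shares were 9.21% and 3.01%, and those of the other short loci 1.23% and 0.361%.

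**Figure D1:**
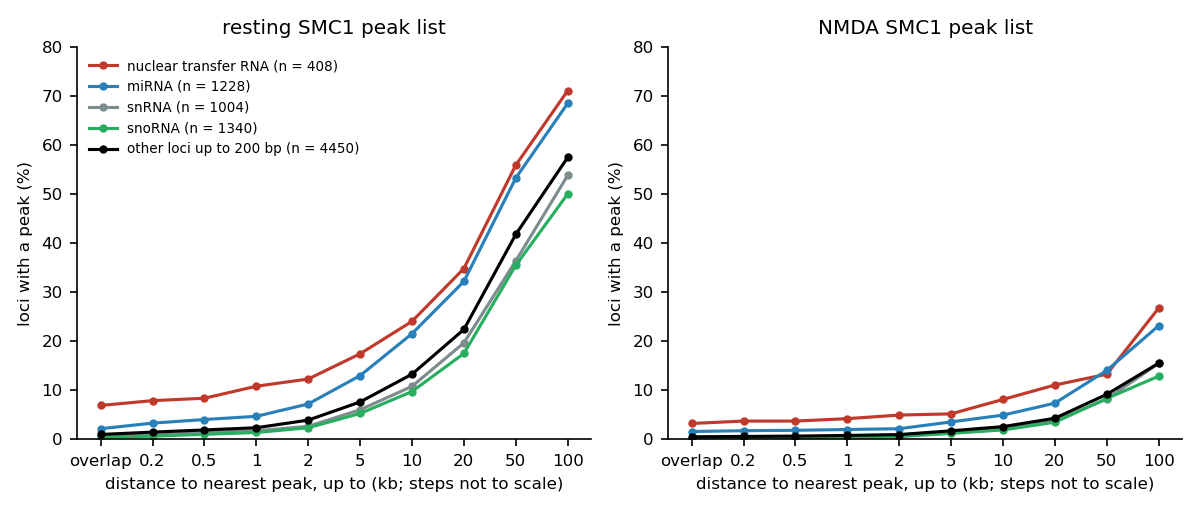
Share of loci (vertical axis, %) with an SMC1 peak overlapping or within the given distance in kb (horizontal axis, steps not to scale), for nuclear tRNA loci and other short RNA classes, in the resting list (left) and the NMDA list (right). Nuclear tRNA loci start at 6.86% overlapped by a resting peak and 3.19% overlapped by an NMDA peak, against 0.944% and 0.472% of other loci up to 200 bp.

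Many peaks covered the tRNA gene itself. Of the 408 nuclear loci 28 were overlapped by a resting peak and 13 by an NMDA peak. Beyond 1 kb the tRNA share rose slowly at first, to 12.3% within 2 kb and 17.4% within 5 kb for resting peaks, and to 4.90% and 5.15% for NMDA peaks. The nearest resting peak was at a median of 40042 bp from a nuclear tRNA locus, and 118 of 408 loci had none within 100 kb. For NMDA peaks the median was 346623 bp, and 299 loci had none within 100 kb.

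Because neighbouring tRNA genes share peaks, the loci with peaks rested on fewer sites. The 44 loci with a resting peak shared 30 distinct peaks, 18 of which lay at 1 locus and 12 at 2 or more. The 17 loci with an NMDA peak shared 12 distinct peaks, of which 7 lay at 1 locus and 5 at 2. These peaks made up 0.243% of the resting list and 0.713% of the NMDA list. Of the 30 resting peaks 23 overlapped a tRNA locus, and of the 12 NMDA peaks 11 did. The peak midpoint lay a median of 283 bp from the centre of the nearest tRNA locus in the resting list (33 to 1178 bp) and 278.5 bp in the NMDA list (17 to 1061 bp).

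Of the 44 loci with a resting peak within 1 kb, 34 had one within 500 bp. Just inside the 1 kb limit for resting peaks lay n-TQctg6 at 947 bp, n-THgtg3 at 889 bp and n-TYgta3 at 862 bp. Just outside lay n-TIaat6 at 1111 bp, n-TRtcg1 at 1493 bp and n-THgtg5 at 1494 bp. For NMDA peaks, n-TLtag3 (761 bp) and n-TTagt1 (760 bp) lay inside and n-TQctg6 (1127 bp) outside.

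The lists coincided at 13 tRNA loci (3.02%), beside 2.87% of all annotated loci. These were 13 of the 44 loci with a resting peak (29.5%, 16.8 to 45.2%), against 18.2% of all annotated loci with a resting peak. Among microRNA loci with a resting peak it was 16 of 57 (28.1%), close to the tRNA share. Among all other loci up to 200 bp it was 19 of 103 (18.4%). The same 13 tRNA loci were also 13 of the 17 with an NMDA peak. Counted as peaks, 9 of the 30 resting peaks at tRNA loci overlapped an NMDA peak (30.0%), against 10.7% of the whole resting list. Of the 12 NMDA peaks 9 overlapped a resting peak, a share of 75.0% beside 75.8% of the whole NMDA list. A resting peak only was found at 31 loci and an NMDA peak only at 4, and 382 loci had neither.

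Resting peaks at tRNA genes had a somewhat lower median strength than the whole resting list. Their strength ranged from 18.1 to 126 with a median of 27.7, beside a median of 30.2 for all resting peaks. Of the 30, 11 were above the list median, 4 were among the strongest 10% of the list and 10 among the weakest 20%. They were wider than most, with a median of 952 bp beside 644 bp in the whole list. The 9 that overlapped an NMDA peak had a median strength of 57.6, and the 21 others 27. The same split was not made for the whole resting list, so this difference is not read as particular to tRNA genes.

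NMDA peaks at tRNA genes had strengths from 18.7 to 31.1 with a median of 24.2, beside 23.0 for the whole list, and 8 of 12 were above the list median. None was among the strongest 10% of the list and 2 were among the weakest 20%. Their median width was 1421.5 bp, beside 1033 bp. Only 1 of them had an IDR of 0.01 or less, beside 20.8% of the list, and 17 of the 30 resting peaks did, beside 56.9%. The irreproducible discovery rate (IDR) is the share of peaks expected to be irreproducible between replicates.

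**Figure D2:**
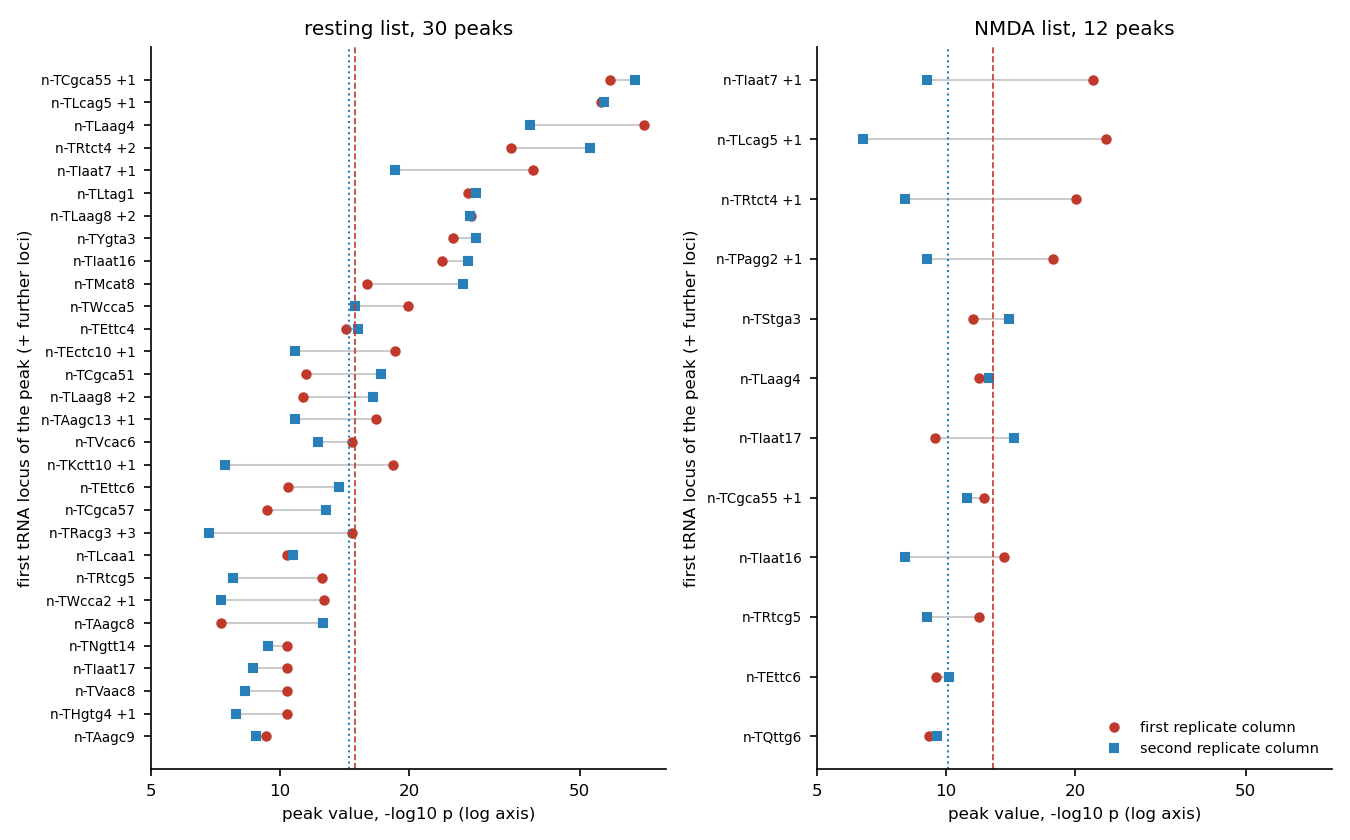
Value of each peak at tRNA loci in the first and second replicate column (horizontal axis, −log10 p, log scale), one row per peak named by its first tRNA locus, in the resting list (left, 30 peaks) and the NMDA list (right, 12 peaks). Dashed and dotted lines mark the medians of the whole list for the first and second column; the 4 strongest resting peaks lie at 34.6 or more in both columns.

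The strongest resting peak at a tRNA gene lay beside a pair of cysteine genes on chromosome 11, n-TCgca55 and n-TCgca54. It spanned 97987247 to 97988126, with values of 58.9 and 67.2 in the replicate columns and rank 51 of 12359. It ended 120 bp before n-TCgca55 and overlapped neither gene. The nearest protein-coding end was that of Plxdc1, 578 bp from the peak. A gene end here means either boundary of the annotated gene, its start included, since the gene positions carry no strand. The NMDA peak at 97987503 to 97988920, with 12.3 and 11.2, covered n-TCgca55 and ended 3 bp before n-TCgca54.

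A pair of leucine genes on chromosome 8, n-TLcag5 and n-TLcag4, lay wholly under the next strongest peak. It spanned 94702735 to 94704860 and had 56.1 and 56.9 in the replicate columns, rank 102. The NMDA peak there, 94702675 to 94704793, had 23.6 and 6.41. The replicate columns were thus close to each other at rest and far apart after NMDA. No protein-coding end lay within 1 kb of this site, and the nearest, of Pllp, was 7389 bp from n-TLcag5.

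The peak over n-TLaag4 also covered the start of Polr3e, whose window is printed above. The resting peak at 120917435 to 120918586 had 70.5 and 38.3 (rank 125), and the NMDA peak at 120917461 to 120918444 had 12 and 12.6. Binding at the tRNA gene and at the Polr3e start cannot be told apart at this width. A second leucine gene on this chromosome, n-TLtag1, had a resting peak at 120835481 to 120836297 with 27.5 and 28.6. It had no NMDA peak.

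On chromosome 11 a peak at Hes7, a transcriptional repressor of the segmentation clock, lay at n-TRtct4, an arginine gene. The resting peak at 69122380 to 69123660 had 34.6 and 52.8 (rank 347) and covered the gene. It also came within 1 kb of n-TLtag3 (leucine) and n-TQctg6 (glutamine). The NMDA peak at 69121448 to 69123480 had 20.1 and 8.03 and ended 2 bp before n-TRtct4.

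n-TRtct4 is 1 of 5 arginine genes with the anticodon UCU. n-TRtct5, the member of this family known for expression restricted to the nervous system, had no peak within 1 kb in either list. Its nearest resting peak was 12456 bp away and its nearest NMDA peak 3420695 bp away. The nearest resting peaks of n-TRtct2, n-TRtct3 and n-TRtct1 were at 2339, 56854 and 409216 bp. n-TRtct4 was therefore the only gene of the 5 with a peak within 1 kb.

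Further sites had peaks in both lists. At n-TIaat7 (isoleucine) on chromosome 13 the resting peak at 22028693 to 22029252 had 39.0 and 18.6, and the NMDA peak at 22028472 to 22029340 had 22.1 and 9.05. Both also lay within 1 kb of n-TTagt1 (threonine). At strength 31.1 this was the strongest NMDA peak at a tRNA gene, rank 247 of 1684. The nearest protein-coding gene end to n-TTagt1 was that of the histone gene H2ac12, 4949 bp away.

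n-TIaat16, an isoleucine gene 318 bp from the end of Plekhg2, had a resting peak with 23.8 and 27.4 and an NMDA peak with 13.7 and 8.03. Both peaks overlapped the end of Plekhg2. n-TIaat17 on chromosome 17 had 10.4 and 8.65 at rest and 9.42 and 14.4 after NMDA, and the nearest protein-coding end was 12963 bp from it. n-TRtcg5, in the Polg window, had 12.6 and 7.79 at rest and 12 and 9.05 after NMDA. n-TEttc6, a glutamate gene on chromosome 14, had 10.5 and 13.7 at rest and 9.51 and 10.2 after NMDA. The last 3 sites were thus weak in the resting list, with strengths of 19.1, 20.3 and 24.2.

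NMDA peaks without a resting peak within 1 kb lay at 4 tRNA genes. A peak on chromosome 1 at 165641285 to 165642709, with 17.8 and 9.05, covered the proline genes n-TPagg2 and n-TPcgg2. Their nearest resting peak was 6755 bp from n-TPagg2. A peak on chromosome 10 at 63428968 to 63430098, with 11.6 and 14.0, covered the serine gene n-TStga3 and overlapped an annotated end of Ctnna3, which encodes an alpha catenin. The nearest resting peak was 152842 bp away. A peak on chromosome 11 at 95858484 to 95860078, with 9.14 and 9.56, covered the glutamine gene n-TQttg6, 5046 bp from the nearest resting peak. This NMDA peak also overlapped the promoter windows of the genes Gm38959 and 4833417C18Rik. Gene ends near peaks were looked up for protein-coding genes only.

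**Figure D3:**
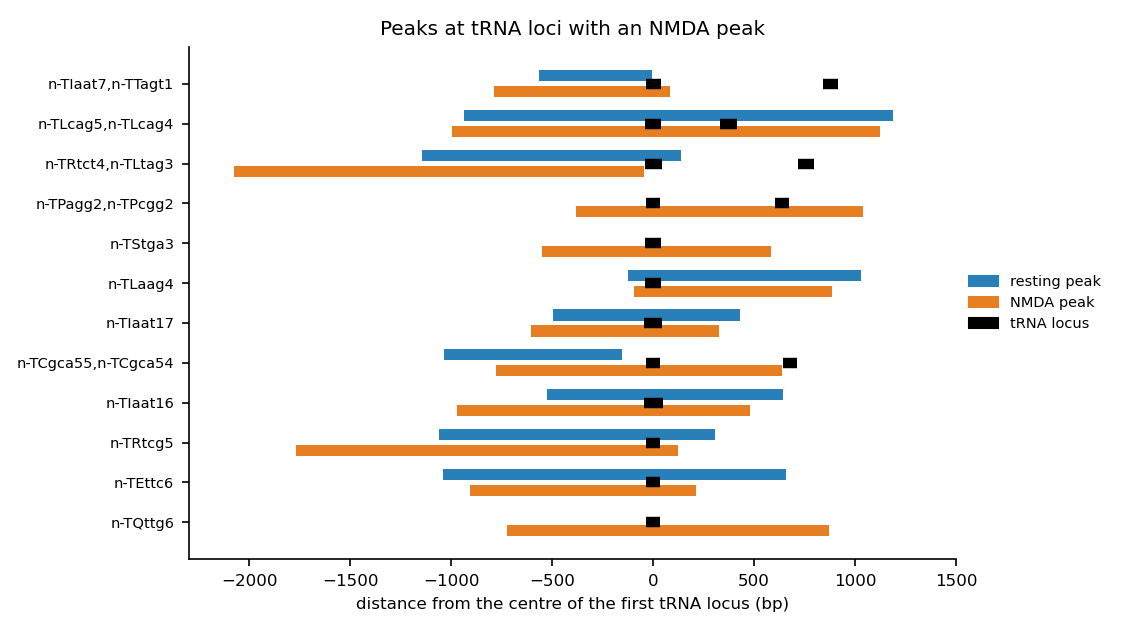
Extent of the 12 NMDA peaks at tRNA loci (orange) and of the strongest overlapping resting peak (blue) in bp from the centre of the first tRNA locus named on the vertical axis, with tRNA loci in black. A resting peak is drawn at 9 of the 12 sites, and the NMDA peak at n-TRtct4 ends 2 bp before that locus.

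The rest of the 12 strongest resting peaks overlapped no NMDA peak. The peak at n-TLaag8 (leucine) on chromosome 14, 51062893 to 51064185, had 27.9 and 27.7. It was within 1 kb of n-TPagg4 (proline) and n-TTtgt3 (threonine) as well. A second resting peak at 51064629 to 51065610, with 11.3 and 16.5, covered both of these. They were the 3 tRNA loci with 2 peaks in a list. n-TYgta3, a tyrosine gene, lay 862 bp from a peak with 25.3 and 28.7, which was 374 bp from the end of Abt1. The methionine gene n-TMcat8 had 16 and 26.7 at 173 bp, and the tryptophan gene n-TWcca5 had 19.9 and 15.0 at 537 bp. n-TEttc4, a glutamate gene inside the transcription factor gene Elf1, lay under a peak with 14.3 and 15.2 that reached the ends of Elf1 and of the splicing factor gene Wbp4. At a strength of 29.5 it was below the list median, as were the other 18 resting peaks, from 18.1 to 29.4.

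Protein-coding gene ends lay within 1 kb of 10 of the 30 resting peaks at tRNA loci (33.3%), beside 26.7% of the resting list. For NMDA peaks it was 5 of 12 (41.7%), beside 61.5% of the NMDA list. The ends at resting peaks belonged to Plxdc1, Polr3e, Hes7, Abt1, Plekhg2, Elf1, the actin-binding protein gene Lasp1, the nuclear lamina gene Tmpo, Mynn and the phosphatase subunit gene Ppp6r3. Those at NMDA peaks belonged to Hes7, Ctnna3, Polr3e, Arl5c and Plekhg2. Resting peaks overlapped the promoter windows of Polr3e, Plekhg2, Elf1, Lasp1, Mynn and Ppp6r3, and NMDA peaks those of Polr3e, Plekhg2 and Ctnna3. The start of such a window need not be the end counted for that gene. At Lasp1 the peak overlapped the window, while the counted end was 370 bp from the peak. Starts inside a longer annotated gene, such as that of Polg, were not counted as ends.

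Nuclear tRNA loci on one chromosome with gaps of up to 50 kb were joined into clusters, 132 in all. Of these 98 held a single locus. Of single loci 13 of 98 had a resting peak (13.3%), of loci in clusters of 2 to 7 it was 18 of 69 (26.1%), and of loci in clusters of 8 or more 13 of 241 (5.39%). The NMDA shares were 7.14%, 8.70% and 1.66%. In each list, large arrays thus had the lowest share of loci with a peak. Counted as clusters, large arrays had the highest share instead. A cluster counts here if any of its loci has a peak, so clusters of more loci are counted more readily. Nothing is read from this order. A resting peak lay at 13 of 98 single loci, 8 of 23 clusters of 2 to 7 and 6 of 11 larger ones. An NMDA peak lay at 7, 3 and 2 of them. The 241 loci include 1 array of 48 cysteine genes without any peak. These differences were not tested.

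The largest cluster had no peak. It held 48 loci of the cysteine anticodon GCA on chromosome 6, from 48133937 to 48363603, and no resting or NMDA peak lay anywhere in its 229.7 kb or within 1 kb of it. Of the 9 cysteine genes elsewhere, 4 had a resting peak and 2 an NMDA peak, beside 10.8% and 4.17% of all nuclear tRNA loci. These few loci rested on 3 resting peaks and 1 NMDA peak. The treatment of reads that match several gene copies was not given in the sources used here, so peaks at near-identical tRNA genes are uncertain.

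The other large arrays had 0 to 3 loci with peaks. On chromosome 13, the cluster at 23397060 to 23530419 had a resting peak at 3 of 36 loci (n-TYgta3, n-TAagc13 and n-TYgta7) and no NMDA peak. The cluster at 21848022 to 22050767 had one at 3 of 32 loci (n-TMcat8, n-TIaat7 and n-TTagt1), and NMDA peaks at the last 2 of these. The cluster at 21160785 to 21326789 had a resting peak at 1 of 24, n-TLcaa1 (leucine), with 10.4 and 10.7. On chromosome 1, 1 of 25 loci at 171033942 to 171111515 had one, the valine gene n-TVcac6 with 14.7 and 12.3. The 25 loci on chromosome 3 at 96322074 to 96501518 had none, and no peak lay between them.

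Neighbouring loci shared a peak in further clusters. All 4 loci at 19627959 to 19629067 on chromosome 3 (n-TRacg3, n-TYgta1, n-TYgta2 and n-TAagc14) lay within 1 kb of a single resting peak with 14.8 and 6.82. On chromosome 10 a peak overlapped both n-TWcca2 and n-TDgtc16, with 12.7 and 7.29 at the end of Tmpo. On chromosome 11 n-TEctc10 and n-TLcaa3 shared one with 18.6 and 10.8, and n-TKctt10 and n-TAtgc9, inside Trim7 and part of a cluster of 8, shared one with 18.4 and 7.44. On chromosome 2 n-THgtg4 and n-THgtg3 shared one with 10.4 and 7.90. None of these 5 sites had an NMDA peak within 1 kb.

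By chromosome, 11 of 52 loci on chromosome 11 had a resting peak and 5 an NMDA peak, resting on 6 and 3 distinct peaks. Over all nuclear tRNA loci the shares were 10.8% and 4.17%. Chromosome 13, with 105 loci the richest in tRNA genes, had 7 and 2, and chromosome 6, with 53 loci, had 1 and 0. Chromosome 14 had a resting peak at 5 of 12 loci and chromosome 7 at 4 of 10. No tRNA locus on chromosomes 9, 12, 15, 16 or X had a peak in either list. The 22 mitochondrial loci had none either, and neither list held a peak on the mitochondrial chromosome. Shares over all annotated loci of each chromosome were not computed. Differences between chromosomes are therefore not read as a property of the tRNA genes.

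**Figure D4:**
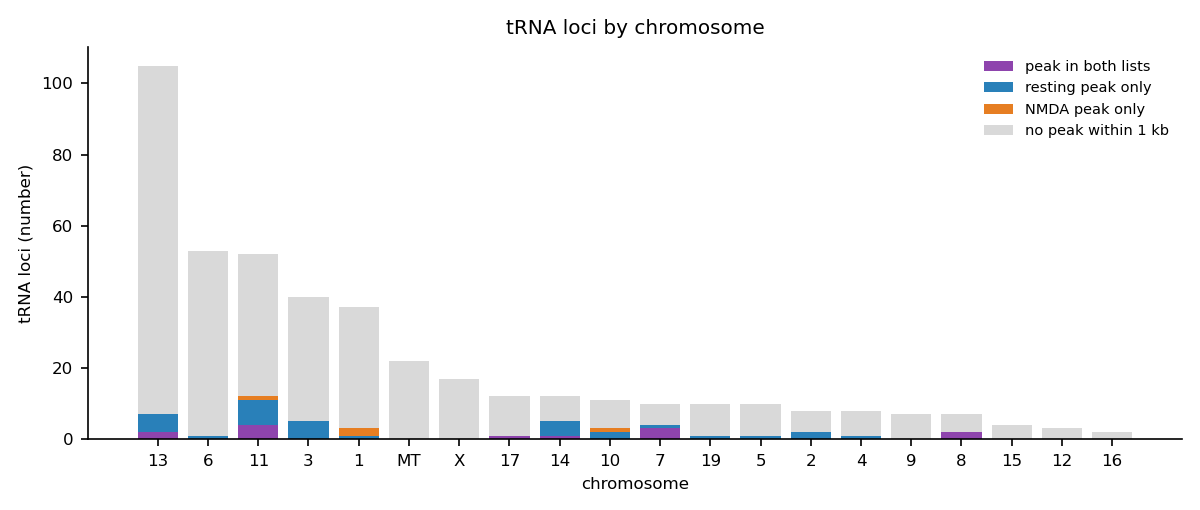
Number of tRNA loci (vertical axis) on each chromosome (MT, mitochondrial), divided into loci with a peak within 1 kb in both lists, in the resting list only, in the NMDA list only, or in neither. Chromosome 11 holds 11 of the 44 loci with a resting peak, and chromosome 13 has 98 of 105 loci without any peak.

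By amino acid, leucine genes had the most loci with peaks, with a resting peak at 8 of 26 (30.8%) and an NMDA peak at 4, all of which had both. They rested on 8 resting and 3 NMDA peaks. A resting peak was found at 4 of 10 tyrosine and 5 of 33 alanine genes, and no NMDA peak at either family. The tyrosine loci rested on 3 distinct resting peaks and the alanine loci on 5. Isoleucine genes had peaks of both lists at 3 of 16 loci, on 3 separate sites. None of the 28 glycine genes or the 7 phenylalanine genes had a peak, and among 22 serine genes 1 had an NMDA peak and none a resting peak. These counts are small, and no test between families was made.

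**Figure D5:**
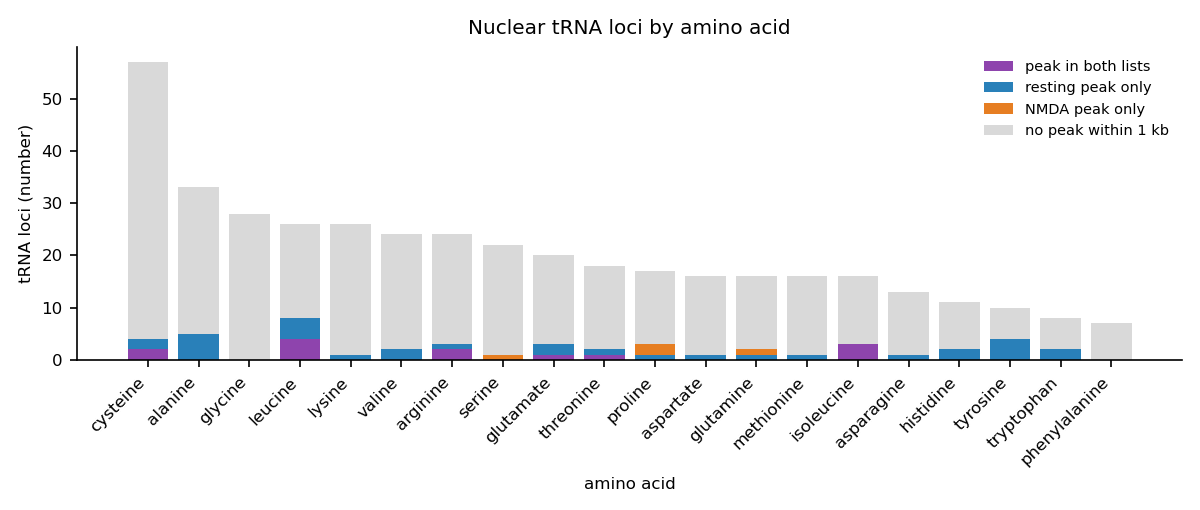
Number of nuclear tRNA loci (vertical axis) for each amino acid (horizontal axis), divided by peak class as for the chromosomes. Cysteine has the most loci (57, of which 53 have no peak) and leucine the most loci with a resting peak (8 of 26).

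Other Pol III genes and the genes of the Pol III machinery were counted in the same way. Of 10 other Pol III transcripts that could be matched by name, 1 had a resting peak and none an NMDA peak. It was Rn7sk, the regulator of the elongation factor P-TEFb, at 78175914 to 78176754 on chromosome 9 with 8.93 and 9.76. The neuronal Pol III transcript Bc1, whose gene descends from an alanine tRNA, had no peak within 1 kb. None of the 69 loci named for 5S ribosomal RNA had a peak in either list. Other loci up to 200 bp had 2.31% and 0.742%, shares at which few or none of 69 loci would have one, and 5S genes too are repeats of near-identical copies, so nothing is read from this count.

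Of 36 genes for Pol III subunits and factors, 10 had a resting peak within 1 kb of the gene body (27.8%), beside 27% of all protein-coding genes. An NMDA peak was found at 7 (19.4%), beside 6.91%, and 3 genes had both. The strongest lay inside Polr3gl, a subunit gene on chromosome 3, at 96579955 to 96580788 with 62.4 and 59.2 at rest and 38.2 and 15.2 after NMDA. Next came Polr3e, whose peak is the one shared with n-TLaag4. Gtf3c6, for a TFIIIC subunit, had 14.9 and 35.7 at rest and 11.3 and 7.06 after NMDA.

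NMDA peaks without a resting peak lay at Gtf3c1 (13 and 9.56) and Gtf3c2 (10.4 and 8.70), which encode the DNA-binding part of TFIIIC. They also lay at Polr1d (9.93 and 12.2), a subunit shared with Pol I, and at Ssb (8.64 and 10.6), which encodes the La protein that binds the ends of new Pol III transcripts. Snapc5, for a subunit of the snRNA-activating complex, had a resting peak only (21.9 and 14.3). Of 8 condensin genes, 2 had a resting peak and 1, Ncapg, had both (11.3 and 24.0 at rest, 13.7 and 6.69 after NMDA). These are 25.0% and 12.5% of the condensin genes, beside 27% and 6.91% of all protein-coding genes. The counts for NMDA rest on few genes and were not tested.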

How the data were processed

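The tools MACS2, BWA, SAMtools, Trimmomatic and FastQC and the builds GRCm38.p6 and mm10 are named per the submitters' processing notes, without roles. Versions and settings were not given in the sources used here. Each condition has 1 list of peaks, deposited by the authors without a header in the 20-column layout of the IDR tool. The lists hold, as deposited by the authors, a −log10 p for each replicate, the sum of these, and the global IDR as a −log10 value. The deposited lists also hold an IDR score per peak, which was not used. The lowest global value corresponds to an IDR of 0.05 in both lists. The replicate columns carry no replicate number. Input values were not used here.

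Distances between the RefSeq loci and peaks were computed in Python 3.11.15 with pandas 2.3.3, NumPy 2.4.6 and SciPy 1.17.1, with 0 for an overlap. The distance script was tested on simulated peaks planted at known distances. Gene positions have no strand, exons or introns in the table used. The members and lists were chosen with earlier results of these data known. Named loci are those with an NMDA peak, those of the 12 strongest resting peaks, the arginine UCU genes, the 6 largest clusters, clusters in which loci share a peak, and loci nearest the 1 kb limit. Other Pol III genes are named where they have an NMDA peak or one of the 4 strongest resting peaks. Rn7sk, Bc1, n-TVcac6, n-TLcaa1 and the remaining genes at peaks were named after their values were seen. Alternatives varied the distance, the IDR limit, the loci counted, the cluster gap and the replicate column.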

Additional observations from a re-analysis of the deposited data

How the results depend on the processing

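The counts of loci depended on the distance and on the IDR limit. Main counts were 44 loci with a resting peak, 17 with an NMDA peak and 13 with both. When the peak had to overlap the locus, 28 loci had a resting peak and 8 had both. Within 5 kb, 71 had a resting peak. At an IDR up to 0.01 the counts were 25, 2 and 2, so nearly all NMDA calls at tRNA loci ended there. Without loci near protein-coding genes the counts were 29, 10 and 7, with fewer loci counted. Counted as clusters, 27 had a resting peak. The other alternatives for these 3 counts stayed within 1.5 times. Median strength over the list median was 0.918 for resting and 1.05 for NMDA peaks. With 1 replicate column at a time it ranged from 0.912 to 0.987 and from 0.921 to 0.938, so NMDA peaks at tRNA loci lay above the list median only for the sum. For NMDA peaks that overlap the locus it was 1.04. Gene ends overlapped 6 resting and 3 NMDA peaks, against 10 and 5 within 1 kb. The number of clusters, with the mitochondrial one, was 133, and 177 or 124 with gaps of 10 or 200 kb. No paired analysis was possible because each condition has 1 list and its replicate columns carry no numbers. Depth is unknown, so a tRNA locus without a peak may hold SMC1 below the limit of these lists.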
